A study of Mus musculus with 7 samples.

Results

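In mouse erythroid progenitors labelled as given dexamethasone and the PPARα agonist GW7647, 1651 PPARα peaks and 1157 glucocorticoid receptor (GR) peaks were called. A stretch of 38400 bp at the start of the assembled sequence of chromosome 9, which held 14 PPARα peaks, was left out. Outside it, 231 of the 1651 PPARα peaks held at least 6 reads and overlapped no GR peak by even 1 bp. These PPARα-only peaks were chosen by their reads and by their position relative to GR peaks, so their reads, folds and widths are given as a description, with no test. The cells were burst-forming unit erythroid progenitors (BFU-E), early cells of the red cell lineage, sorted from fetal livers of 129/SvImJ embryos (E14.5) and cultured with SCF, IGF-1 and erythropoietin. Chromatin immunoprecipitation with sequencing (ChIP-seq) was run with an antibody to GR or to PPARα. Both peak lists used here are labelled as cells treated for 4 h with 100 nM dexamethasone and 10 μM GW7647, with 1 library per antibody and 1 shared input from cells with the same treatment. The other 5 of the 7 samples of the series were not analysed here, so what either compound does to these sites was not measured, and no value has a replicate check.

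PPARα is a nuclear receptor that binds fatty acids and related ligands, pairs with the retinoid X receptor and contacts DNA at direct repeats of a short hexamer. It is best known as an activator of genes of fatty acid oxidation in the liver. GR is bound by glucocorticoids such as dexamethasone and contacts palindromic elements as a dimer, and it is known to prolong the self-renewal of early erythroid progenitors. Peaks found with the PPARα antibody and without a GR peak are the places where the lists of the 2 receptors part. Peak lists hold no expression, so the cell type could not be checked against its markers.

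After duplicate removal the PPARα library held 1959992 reads, the GR library 7516221 and the input 30047397. The header of the PPARα table names a read file marked for dexamethasone alone, while its run name and its input carry the mark of the combined treatment. Whether these PPARα reads come from cells that also received GW7647 cannot be told from the files, and this holds for each site below. All positions are on mm9, from the deposited tables. No gene or DNA sequence is given for them, because no genome or annotation of that build was used here.

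The PPARα peaks without a GR peak were counted by how many reads they held. Over all 1637 PPARα peaks outside the chromosome 9 stretch, 872 (53.3%) overlapped no GR peak, and among the 875 with at least 6 reads 231 (26.4%) did not. These shares use the contrast that chose the members, so nothing is read from them beyond the counts. At exactly 6 reads 107 of 167 peaks lacked a GR peak (64.1%, exact Clopper-Pearson 95% interval 56.3 to 71.3%). At 8 reads it was 28 of 77 (36.4%, exact interval 25.7 to 48.1%) and at 10 reads 11 of 57 (19.3%, exact interval 10.0 to 31.9%). From 11 to 15 reads the count was 10 of 152 (6.58%, exact interval 3.20 to 11.8%). Of the 124 peaks with 16 to 25 reads 1 lacked a GR peak, as did 1 of the 71 with 26 to 50 reads. None of the 53 peaks with more than 50 reads did, which allows a share of up to 5.66% when the limit is set at 3 counts of the 53, and of 6.72% as the exact upper bound. Here and below, such intervals and limits take in counting error alone, and peaks that lie close together are not independent.

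**Figure D1:**
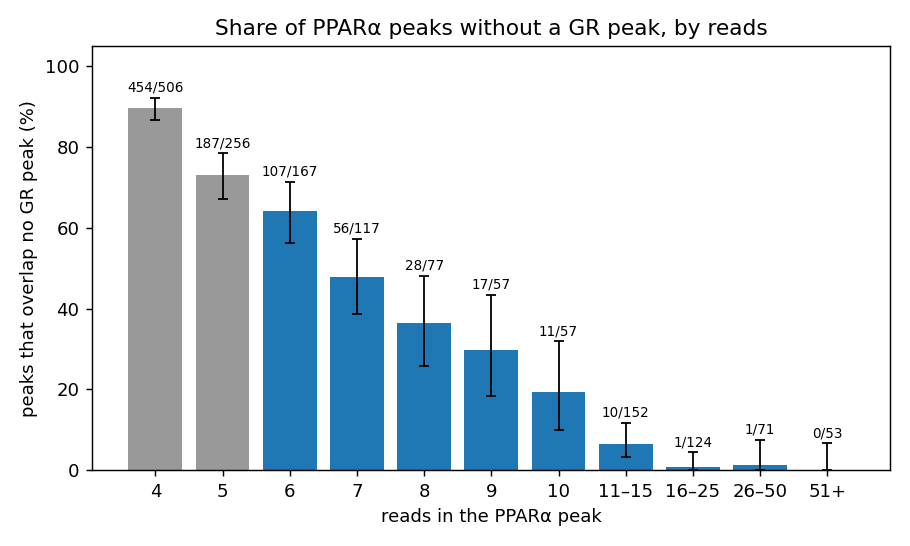
Share of PPARα peaks that overlap no GR peak (y axis, %) by the number of reads in the PPARα peak (x axis), outside the chromosome 9 stretch; error bars are exact 95% intervals and the labels give counts. Blue bars hold the 231 members and grey bars the peaks of 4 or 5 reads; the share falls from 64.1% at 6 reads to 6.58% at 11 to 15 reads.

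Most of the PPARα-only peaks held few reads, as did most peaks of the whole PPARα list. The members held from 6 to 32 reads, with a median of 7, and 163 of the 231 had 6 or 7. The 644 shared peaks of at least 6 reads had a median of 12, and 121 of them had 6 or 7. All 1637 PPARα peaks outside the stretch, with those of 4 or 5 reads, had a median of 6 (quartiles 4 and 10). Just inside the threshold, the 107 members with 6 reads had folds of 9.12 to 150.65 and widths of 41 to 169 bp. Just outside it, the 187 PPARα-only peaks with 5 reads had folds of 11.09 to 125.54 and widths of 41 to 138 bp. Ranked by fold, no member was among the first 50 of the 1651 PPARα peaks, 1 was among the first 100 and 32 among the first 400. The GR list itself starts at 6 reads. Where a PPARα peak of 6 to 10 reads did overlap a GR peak, 256 in all, that GR peak had a median of 8 reads (quartiles 7 and 10, range 6 to 105), and in 111 of the 256 (43.4%) it had 6 or 7. Over the whole GR list 438 of 1157 peaks (37.9%) had 6 or 7 reads, and the median was 9. The GR library was 3.83 times as deep, and 6 PPARα reads at equal density would be 23.0 GR reads. Reads of the GR library at the members are not in the peak tables, so GR signal below its calling threshold was not measured there.

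The fold enrichment of these peaks is mainly a count of stacked reads. Fold is the height of the read pile at the summit divided by the local background, and at the genome-wide background 1 read of the PPARα library is worth a fold of 25.1. The deposited score and fold together give back the local background and the summit height of each peak, and the heights came out as whole reads within 0.1 for 231 of 231 members and for 1637 of the 1638 PPARα peaks whose score was not capped. The members had heights of 3 to 19 reads with a median of 6. Their folds accordingly took few values. A fold of 150.65, or 6 reads, was shared by 73 members, 125.54 (5 reads) by 29, 175.75 (7 reads) by 25 and 200.86 (8 reads) by 16. Differences in fold of this size between members are differences of 1 read. A fold that was a whole number of such reads within 0.02 was found in 163 of 231 members (70.6%), against 1196 of all 1637 peaks outside the stretch (73.1%).

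Like most PPARα peaks outside the stretch, most members lay where the local background was at the genome-wide level. Over the 1633 PPARα peaks there with a known background, the median was 1.00 times that level and the upper quartile 1.06 times. In the members these were 1.00 and 1.13 times. In 161 members (69.7%) the background was at the genome-wide level, in 41 (17.7%) it was raised by 1.02 to 1.78 times, and in 29 (12.6%, exact interval 8.6 to 17.5%) it was at least 2 times that level, up to 30.3 times. The caller takes the local background from the input at or around the peak, with regional ranges of 1000 and 10000 bp. A raised value thus means more input reads in that neighbourhood than genome-wide. Input reads under the peaks themselves were not counted here. The share with at least 2 times was 12.4% over all PPARα peaks outside the stretch, which is near the share in the members. Among peaks of 6 to 10 reads it was 23 of 219 members (10.5%, exact interval 6.8 to 15.3%) and 14 of 256 shared peaks (5.5%, exact interval 3.0 to 9.0%). The difference was not tested, and intervals that overlap do not show that the shares agree. The 161 members at the genome-wide level had folds of 75.32 to 376.61 and 6 to 15 reads. The 29 with raised background had folds of 5.65 to 62.94 and 6 to 32 reads. The 41 in between had folds of 57.69 to 199.70, so only 1 member under the limit of 2 times, on chromosome 10 at 40883567, had a fold within the range of the 29. That fold and background go together follows from the division.

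**Figure D2:**
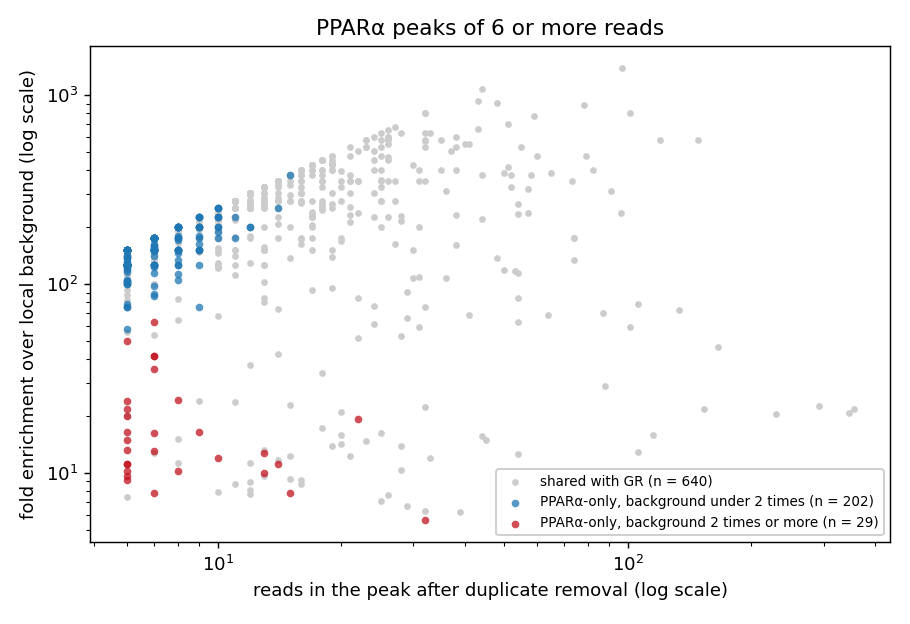
Fold enrichment (y axis, log scale) against reads in the peak (x axis, log scale) for PPARα peaks of 6 or more reads. Blue points are PPARα-only peaks with a local background under 2 times the genome-wide one (202), red points those at 2 times or more (29), and grey points 640 shared peaks (4 with a capped score are not drawn); blue points end at 15 reads.

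**Figure D3:**
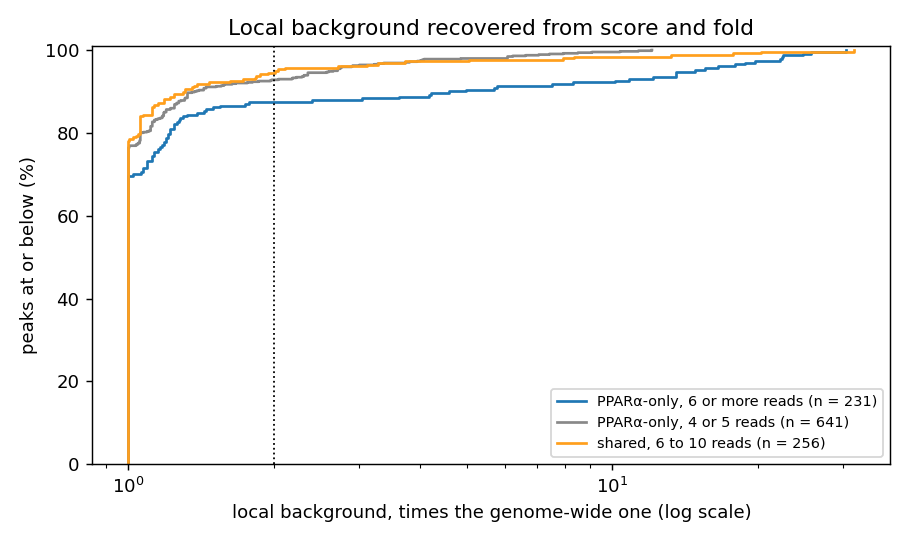
Cumulative share of peaks (y axis, %) by local background as a multiple of the genome-wide one (x axis, log scale), for PPARα-only peaks of 6 or more reads (blue), PPARα-only peaks of 4 or 5 reads (grey) and shared peaks of 6 to 10 reads (orange). The dotted line is at 2 times; 12.6% of the blue curve lies at or beyond it.

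The member of highest fold lay on chromosome 18 from 53222979 to 53223052. Its 15 reads, all stacked at the summit, gave a fold of 376.61. The peak stood 44 bp from a GR peak that began at 53223096 and had 13 reads, inside a group of 10 PPARα peaks over 1696 bp of which the other 9 were shared. The PPARα-only call of highest fold was thus part of a shared group. Next came 4 members with a fold of 251.08, a height of 10 reads. The first, on chromosome 1 from 74859877 to 74859983 with 14 reads, also stood beside a shared site, 121 bp from a GR peak with 28 reads. The other 3 stood at least 100 kb from any GR peak. They lay on chromosome 13 from 42472022 to 42472088 (10 reads, nearest GR peak 2492858 bp away), on chromosome 14 from 9296180 to 9296248 (10 reads, 142802 bp) and on chromosome 5 from 150794840 to 150794889 (10 reads, 3721917 bp).

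A further 8 members had a fold of 225.97, or a height of 9 reads, with 9 to 11 reads each, and in all 8 the local background was at the genome-wide level. The farthest from GR was on chromosome 12 from 12121957 to 12122020, with 9 reads and 9011816 bp to the nearest GR peak. Another was on chromosome 2 from 60137345 to 60137441, with 10 reads and 3102469 bp to GR. The one on chromosome 8, from 125945403 to 125945482, had 11 reads and was 1588666 bp from GR. The rest were on chromosome 1 at 126760495, chromosome 5 at 24594461, chromosome 6 at 31888162, chromosome 13 at 38405283 and chromosome 17 at 9128977, between 526112 and 2355707 bp from the nearest GR peak. Together with the 3 sites of fold 251.08 that stood away from GR, these are the 11 members of highest fold that lay at least 100 kb from a GR peak.

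Ranked by reads instead of fold, the leading members included peaks with raised background. Of the 12 members with 11 or more reads, 6 had raised background. At 11 to 15 reads it was raised in 4 of 10 members and in 21 of 142 shared peaks. Shared peaks with more reads had it too, 23 of 123 at 16 to 25 reads and 27 of 70 at 26 to 50. Whether members differ from shared peaks in this was not tested. The 32 reads on chromosome 11 from 3068602 to 3069165, the widest member at 564 bp, reached a height of only 5 over a background 22.2 times the genome-wide one. Its fold of 5.65 was the lowest of all 1651 PPARα peaks. On chromosome 18 from 56099169 to 56099296, 22 reads reached a height of 19, yet over a background 24.8 times the genome-wide one the fold was 19.24. Members with 13 to 15 reads and raised background lay on chromosome Y at 2858192 (fold 7.84), chromosome X at 166445135 (fold 11.19), chromosome 4 at 3018062 (fold 9.93) and chromosome 6 at 60637215 (fold 12.69). The other 6 had folds of 175.75 to 376.61. Beside the sites on chromosomes 18, 1 and 8 above, they were on chromosome 3 from 30640867 to 30640967 (12 reads, fold 200.86), on chromosome 18 from 66845404 to 66845502 (12 reads, fold 199.70) and on chromosome 5 from 151747411 to 151747557 (11 reads, fold 175.75).

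The 5 members of lowest fold were the chromosome 11 peak at 3068602, the peaks at 2858192 and 2699603 on chromosome Y (folds 7.84 and 9.12), and peaks on chromosome 5 at 115372462 (fold 7.81, 7 reads) and on chromosome 18 at 3006924 (fold 9.68, 6 reads). In each of the 5 the background was 15.6 to 22.5 times the genome-wide one. Mouse chromosomes carry the centromere at one end, and the assembled sequence beside it is rich in repeats. In mm9, 4 members began before position 3100000 on chromosomes 4, 11 and 18, at the start of that sequence, and all 4 had a background of 15.6 to 30.3 times. Outside chromosome Y and the chromosome 9 stretch, 10 PPARα peaks in all began before that position, 4 of them shared with GR, and all 10 had a background of at least 2 times the genome-wide one.

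On chromosome Y most members had raised background, and so had a shared PPARα peak beside 1 of them. That shared peak began at 2773887, and its background was 13.2 times the genome-wide one. Chromosome Y held 7 members of the 10 PPARα peaks there with at least 6 reads (70.0%, exact interval 34.8 to 93.3%). In 6 of the 7, from 2692829 to 2858371, the background was 10.1 to 22.4 times the genome-wide one, the folds were 7.84 to 16.54, and 5 had a GR peak within 10 kb. The other Y member, from 2461400 to 2461494, had 7 reads, a fold of 150.65 and a background at the genome-wide level. On chromosome X there were 13 members. The 3 with raised background began at 3846765, 23585632 and 166445135, and the other 10 had folds of 88.75 to 175.75. Members were found on every autosome. Chromosome 1 held the most, 21 of its 50 peaks of at least 6 reads (42.0%, exact interval 28.2 to 56.8%), with a median fold of 150.65. Chromosome 17 held 4 of 42 (9.52%, exact interval 2.66 to 22.6%), with folds of 125.54 to 225.97. These 2 were picked from 21 chromosomes after their values were seen, and the spread was not tested.

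**Figure D4:**
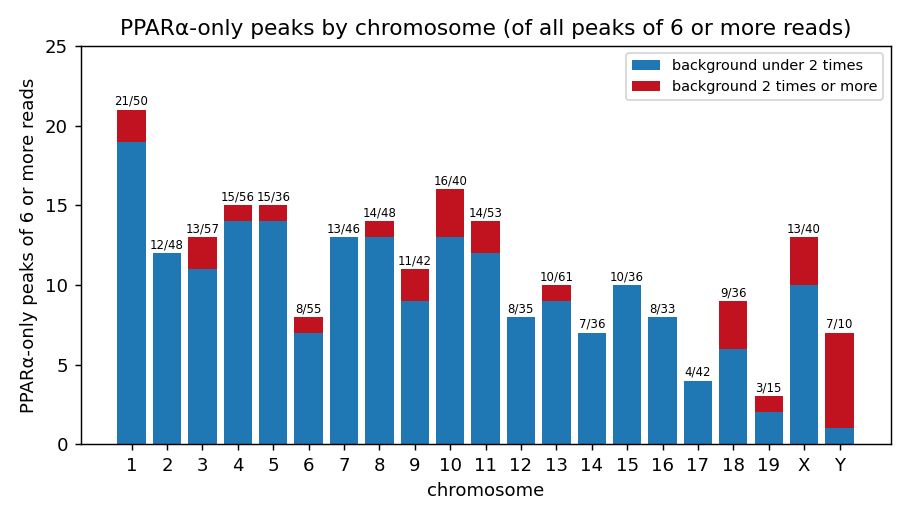
Number of PPARα-only peaks of 6 or more reads (y axis) by chromosome (x axis), split by local background under 2 times (blue) or at least 2 times (red) the genome-wide one; labels give members over all PPARα peaks of 6 or more reads. On chromosome Y 6 of the 7 members are red.

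Most members were far from any GR peak, as were most PPARα-only peaks of 4 or 5 reads. Both sets leave out peaks that touch GR, and the gap expected with 1157 GR peaks was not computed. The median gap from a member to the nearest GR peak was 922970 bp (quartiles 292202 and 1950173). Of the 231 members, 109 (47.2%, exact interval 40.6 to 53.8%) had none within 1 Mb. The largest gap, 12433308 bp, belonged to a member of 6 reads on chromosome 1 from 8526142 to 8526224. A GR peak lay within 10 kb of 20 members (8.66%), against 6.88% of all 872 PPARα-only peaks outside the stretch. Of these 20, 9 had raised background, and among the 202 members under that limit the count was 11 (5.45%). The PPARα-only peaks of 4 or 5 reads had a median gap of 758775 bp, and 40 of 641 (6.24%) had a GR peak within 10 kb. Of these 641, 272 had none within 1 Mb (42.4%, exact interval 38.6 to 46.4%). The difference between the 2 sets was not tested.

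**Figure D5:**
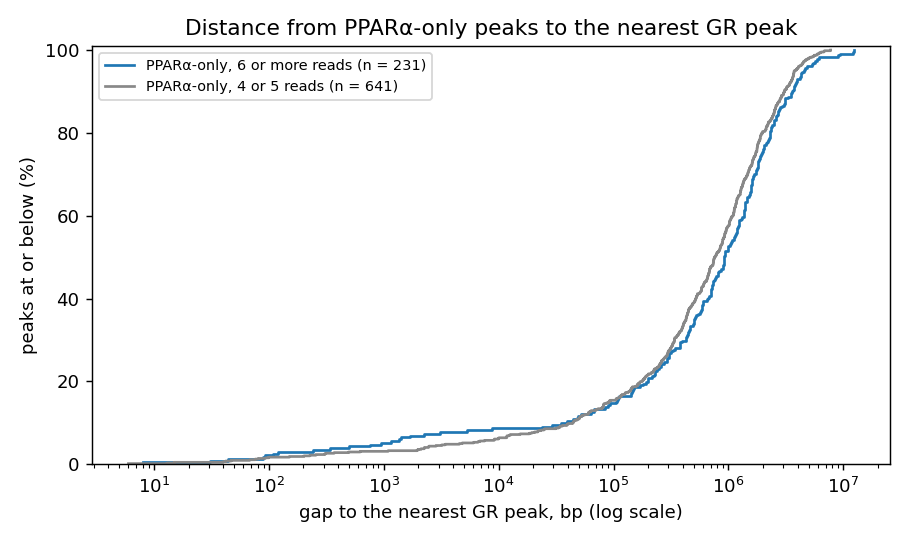
Cumulative share of PPARα-only peaks (y axis, %) by the gap in bp to the nearest GR peak (x axis, log scale), for the 231 peaks of 6 or more reads (blue) and the 641 of 4 or 5 reads (grey). The medians are 922970 bp for the blue curve and 758775 bp for the grey one.

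A GR peak lay within 1 kb of 12 members, and 9 of these had a shared PPARα peak within 1 kb too. For 8 of the 9, the nearest GR peak was itself overlapped by that other PPARα peak. The nearest miss was on chromosome 10, where a member from 126150962 to 126151122 (7 reads, fold 86.60) ended 8 bp before a GR peak of 13 reads that had a PPARα peak of 11 reads and fold 276.18. On chromosome 11 a member from 90044996 to 90045176 held 10 reads and stood 31 bp from a GR peak of 11 reads, whose own PPARα peak had only 4. There the larger PPARα call was the one beside the GR peak. On chromosome 6 the member from 124477790 to 124477841 (8 reads, fold 200.86) was 950 bp from a GR peak of 54 reads. That GR peak had a PPARα peak of 59 reads and fold 778.33. The sites on chromosomes 18 and 1 named first above are 2 more of the 8, and the last 3, on chromosomes 4, X and Y, had raised background.

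In the other 4 members within 1 kb, the GR peak had no PPARα peak on it, so the calls of both receptors lay side by side without touching. On chromosome 8 a member from 129334105 to 129334148 and a GR peak from 129334237 to 129334311 had 6 reads each, 89 bp apart. Within 1 kb of that member lay a shared PPARα peak too, which began at 129333867 and had 19 reads. On chromosome 9 a member from 82984073 to 82984178 (7 reads) was 242 bp from a GR peak of 6 reads, with a further PPARα-only peak of 4 reads between them. On chromosome 11 a pair of members, from 62366079 to 62366155 (6 reads) and from 62366311 to 62366431 (7 reads), lay 109 and 341 bp from the same GR peak of 9 reads.

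Another PPARα peak lay within 1 kb of 22 members (9.52%), against 186 of all 1637 PPARα peaks outside the stretch (11.4%), and the other 209 members had none. The 22 fell into 18 groups of neighbouring PPARα peaks, 9 of which had no shared peak. The group with most reads among these 9 was on chromosome 3 from 100027388 to 100027905. It had 3 members of 6, 8 and 8 reads (folds 125.54, 150.65 and 200.86), or 22 reads over 518 bp, with background at the genome-wide level and the nearest GR peak 908242 bp away. On chromosome 10 from 105050444 to 105050678, 2 members of 8 reads each (folds 150.65 and 200.86) stood 83 bp apart and 375101 bp from GR. Summed over the group, these places held more reads than any member with a background at the genome-wide level. On chromosome 15 a member from 98676005 to 98676133 with 10 reads and fold 200.86 had a second PPARα-only peak of 4 reads beside it, ending at 98676511. Runs of 8 or more PPARα peaks less than 100 kb apart held 8 members (3.46%), against 3.85% of all PPARα peaks outside the stretch.

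Like the list as a whole, the members were narrow. Widths ran from 41 to 564 bp with a median of 69 bp (quartiles 53 and 99). The median over all 1637 PPARα peaks outside the stretch was the same (69 bp, quartiles 52 and 102). The library was selected for 200 to 400 bp, but the peak caller estimated a fragment length of 38 bp. That is shorter than the read length of 40 bp it determined. Edges and heights of PPARα peaks, and so their overlap with GR peaks, rest on this estimate. In 131 of the 231 (56.7%) the height equalled the number of reads, against 56.2% of all PPARα peaks outside the stretch with a known height. Those were the members under 76 bp, and width under 76 bp and full height went together in all 1638 uncapped PPARα peaks. Reads counted at a fragment length of 38 bp must all overlap in a peak narrower than 76 bp. The agreement and the shares of full height therefore only restate the widths. Beyond the chromosome 11 and Y peaks at 3068602 and 2858192, the widest members were on chromosome 4 from 84385315 to 84385524 (9 reads, height 3, fold 75.32), on chromosome 17 from 66842022 to 66842203 (9 reads, height 5, fold 125.54) and the chromosome 11 peak at 90044996 (10 reads, height 7). In these the same number of reads was spread over more sequence than in the narrow piles.

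Among peaks of like reads, widths of PPARα-only and shared peaks were set side by side. With 8 to 10 reads the median width was 82.5 bp for 56 members (exact 95% interval of the median 72 to 98 bp) and 65 bp for 135 shared peaks (61 to 71 bp). Without raised background the medians were 85 bp for 52 members and 65 bp for 127 shared peaks. With 6 or 7 reads they were 58 bp (interval 56 to 63 bp, 163 members) and 62 bp (58 to 67 bp, 121 shared peaks). Peaks of 1 library are not replicates. The split at 8 reads was made with the widths in view, and the difference was not tested.

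The cap of 1 read per position and strand left room in nearly all members. If reads are spread over the width less the fragment length, on both strands, the highest filling in the PPARα list was exactly 100%, so no peak exceeded this limit. The members filled a median of 12.5% of the positions (quartiles 6.03 and 21.4%), and 15 (6.49%) filled at least 50%. Over all PPARα peaks outside the stretch the median was 13.3%, and 7.15% filled at least 50%. The only full member was on chromosome X from 3846765 to 3846805, with 6 reads in 41 bp, a fold of 49.62 and a background 3.04 times the genome-wide one. The densest members with background at the genome-wide level were on chromosome 1 from 56638000 to 56638041 and on chromosome 5 from 121245656 to 121245697, both with 6 reads, a fold of 150.65 and 75% filled, and on chromosome 9 from 68523663 to 68523705, with 7 reads and 70.0% filled.

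At equal reads and equal local background, a narrower peak under 76 bp had a score that was higher or equal. For peaks under 76 bp the score behaved as if the reads had first been scaled up to a window of 76 bp, and 113 of the 231 members (48.9%) were scored with more reads than they held, near the 47.3% (775) of all 1637 PPARα peaks outside the stretch. The chromosome 5 member at 150794840 had 10 reads in 50 bp and was scored as 15, so its score of 309.34 equalled that of the chromosome 18 member at 53222979, which had 15 reads in 74 bp. The scores of members ran from 50.18 to 309.34 with a median of 143.79, and the FDR given by the caller was 0 for every PPARα peak. Neither the score nor the FDR therefore ordered these sites by their reads.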

How the data were processed

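Peak lists of 2 ChIP-seq libraries were used, PPARα and GR, each from BFU-E labelled as treated with dexamethasone and GW7647. Per the submitters' processing notes, cutadapt and Bowtie were used with mm9, in versions not given in the sources used here. Peak calling used MACS 1.4.2 per the file headers, against 1 input (p cutoff 1.00e-05, model fold 5 to 30, 1 read kept per position, larger library scaled down) and no replicates were pooled. The deposited read counts per peak are distinct reads, the deposited scores are 10 times the negative log10 of the p, capped at 3100, the deposited fold ratios are over local background, and the deposited FDR is in percent. The authors' shorter lists held exactly the peaks of fold 10 or more.

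The deposited tables were read with Python 3.11.15, pandas 2.3.3, numpy 2.4.6 and scipy 1.17.1, and plotted with matplotlib 3.10.9. Overlap meant 1 bp or more. The local background was the Poisson mean that gives the deposited score from the reads scaled to a window of the peak width, at least 76 bp and at most 1000 bp. The fold then gave the summit height. Both steps and the overlap rule were tested on simulated data. The simulated scores and folds were made with the same formulas, so recovery there checks the computation only. It cannot show how the caller made the deposited columns. Shares have exact Clopper-Pearson 95% intervals, and medians exact order-statistic intervals. At the genome-wide background, with 1959992 PPARα reads and a fragment length of 38 bp, 1 read at the summit moves a fold by 25.1. Where the local background is raised, 1 read moves the fold by less.

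Members and lists were chosen with earlier results of these data known. The 12 members of highest fold, the 12 with most reads, the 5 widest, the 10 nearest to GR, the 5 of lowest fold and runs of 3 or more members within 100 kb were to be named. A thirteenth tied in fold, and the members of groups within 1 kb, the dense members, those farthest from GR and those on X and Y were named after their values were seen. Motif, repeat, gene-list and location results had been planned but need a genome of the mm9 build, and none was used here. The recovered background is a reading of the deposited columns that no header states.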

Additional observations from a re-analysis of the deposited data

How the results depend on the processing

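Of 99 values (9 results under 11 other settings, of which the limit on background was chosen after seeing the data), 69 stayed within the interval of the reported value or within 1.5 times a count. At a minimum of 5, 8 and 10 reads there were 418, 68 and 23 members, the share without GR was 36.96%, 11.5% and 5.03%, and the median fold was 125.54, 175.75 and 200.86. At 8 and 10 reads the median reads were 9 and 11, the median width 89.5 and 99 bp, and the share within 10 kb of GR 13.2% and 26.1%. At 10 reads 60.9% had whole-read folds, 13.0% lay in runs and 4.35% on chromosome 1. Only peaks of 80 bp or more left 91 members, a share of 21.3%, a median fold of 125.54 and a median width of 106 bp. The lists of fold 10 or more gave a share without GR of 30.6% and whole-read folds of 62.7%, since GR peaks of low fold drop out. Leaving out GR within 1000 bp gave 3.65% within 10 kb, and counting overlaps under 50% of the PPARα peak as unshared gave 13.9%. Both moves follow from the setting, since the former drops members near GR and the latter adds peaks that touch GR. The share in runs was 0.474% on autosomes only, 8.98% with the chromosome 9 stretch kept, and 0.495% with background under 2 times, where 80.7% of folds were whole. Motif, repeat and location results were not run. No paired analysis was possible because there was 1 library per antibody. At this depth most members rest on 6 or 7 reads, and a difference of 1 read between them is within counting error.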
